A study of Gallus gallus with 2 samples.

Results

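The genes described here are 49 genes of the intestinal brush border, chosen by name: peptidases of the apical membrane, transporters of peptides and amino acids, and proteins that build the microvilli. A gene was measured where the array's annotation gave it at least 1 chicken probe set of its own, and 41 of the 49 were measured, out of 13050 named genes in all. The other 8 (NAALADL1, GGT1, SLC3A2, SLC6A14, SLC7A8, SLC43A1, SLC1A5 and ALPI) had no probe set under these names in the annotation used and were not analysed here. Of the 41, 39 had a signal above background on at least 1 array, where background is the 95th percentile of 689 probe sets not designed for chicken (45.1 on the paddy rice array and 44.1 on the corn array). TMPRSS15 and MYO5B were not above background on either array, and no ratio is given for them in the text.

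The study compared ileal gene expression of male White Leghorn chicks fed a diet with ground paddy rice (rice with its husk) at 650 g/kg with that of chicks fed a diet with ground corn (control) at the same level. The diets were given for 2 wk from 1 wk of age to groups of 9 birds, and crude protein and metabolizable energy were not matched between them. For each diet, ileal RNA of 3 birds at 3 wk of age, picked by the authors for a MUC2 level near their group's average, was pooled and hybridised to 1 GeneChip Chicken Genome Array, which reads a transcript with 1 or more probe sets. Neither diet has a second array, so no spread between pools can be given, nothing was tested, and every ratio below compares 1 pool with 1 pool.

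A late step of protein digestion takes place at the brush border. Membrane-bound peptidases of the enterocyte cut peptides into free amino acids and into di- and tripeptides, a proton-coupled carrier takes up the small peptides, and separate carriers take up cationic, neutral, imino and acidic amino acids before basolateral exchangers release them to the blood. The microvilli that hold these proteins are bundles of actin filaments, crosslinked by villin, plastin 1 and espin, tied to the membrane by myosin 1a, and joined at their tips by protocadherins.

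The signal and its scatter set what can be read from a ratio. Bright genes are those whose signal reached 522, the 75th percentile over chicken probe sets, and dim genes those under the median of 110.5. Where a gene had several bright probe sets, their log2 ratios scattered with an SD of 0.16, a factor of 1.11 (1661 genes), and where it had several that reached the median, with an SD of 0.27, a factor of 1.20 (4020 genes). Probe sets of 1 gene were read on the same arrays, so these SDs leave out the spread between birds, pools and hybridisations. Of the 39 genes above background, 27 were bright, 8 lay between the median and the 75th percentile, and 4 were dim. The RNA of the pools had a similar ratio of 3' to 5' signal for beta-actin, 1.52 on paddy rice and 1.51 on corn. Ileal enterocyte transcripts were bright on both arrays. FABP6, the ileal bile acid binding protein, had a signal of 35027 on paddy rice and 31195 on corn, and SLC10A2, the ileal bile acid transporter, had 14136 on paddy rice and 13833 on corn. Of 18 enterocyte markers above background, 12 had ratios below 1, beside 50.1% of bright named genes. The summed signal of the 18 was 207754 on paddy rice and 216552 on corn. Past a threshold were APOA4, an apolipoprotein, with 1412 on paddy rice and 2860 on corn (a ratio of 0.494), and CUBN, the cobalamin receptor, with 372.5 on paddy rice and 138.5 on corn (a ratio of 2.69), both named after their values were seen. Of markers of other cells, 8 of 8 enteric neuron and glia genes had ratios below 1 (median log2 ratio -0.30). Of 10 fibroblast genes, 9 had ratios above 1 (median 0.08). Smooth muscle, goblet cell, enteroendocrine, crypt, lymphocyte and myeloid lists had medians between -0.04 and 0.03, and the endothelial list -0.12. Over all named genes above background the median was -0.0037. Some markers of other cells, named after their values were seen, were past a threshold and not dim. REG4 (goblet cells) had a ratio of 1.91 and ESAM (endothelium) 1.51. S100B and SNAP25 (neurons and glia) had 0.588 and 0.613, and PECAM1 and TIE1 (endothelium) 0.595 and 0.651. The part of these cells in the ratios below was not tested. In whole ileum, fewer enterocytes and less RNA per enterocyte cannot be told apart.

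Like most named genes above background, most brush border genes were not past a threshold. Of the 39 genes, 34 lay between 0.67 and 1.5, the thresholds of the study, in the ratio of paddy rice to corn. The paper reports fewer genes past these thresholds than were counted here over all named genes, so its calls and these cannot be equated. SLC15A2, SLC7A7 and ESPN were above 1.5, where 5.61% of 11624 named genes above background lay, and SLC7A1 and SLC38A4 were below 0.67, where 6.18% lay. None of the 5 was bright, and SLC15A2 and SLC7A1 were above background on 1 array only. Among the 27 bright brush border genes 0 were past a threshold, beside 0.951% of the 5784 bright named genes, and their ratios ran from 0.766 to 1.22. Between the median and the 75th percentile 3 of 8 were past one, beside 8.01% of named genes, and of the dim genes 2 of 4, beside 43.8%. Of the 27 bright genes, 15 had log2 ratios within 1 SD between probe sets of 0, beside 68.4% of bright named genes, and 16 had ratios below 1, beside 50.1%. The median log2 ratio was -0.05 over the 39 genes and -0.0037 over all 11624.

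**Figure D1:**
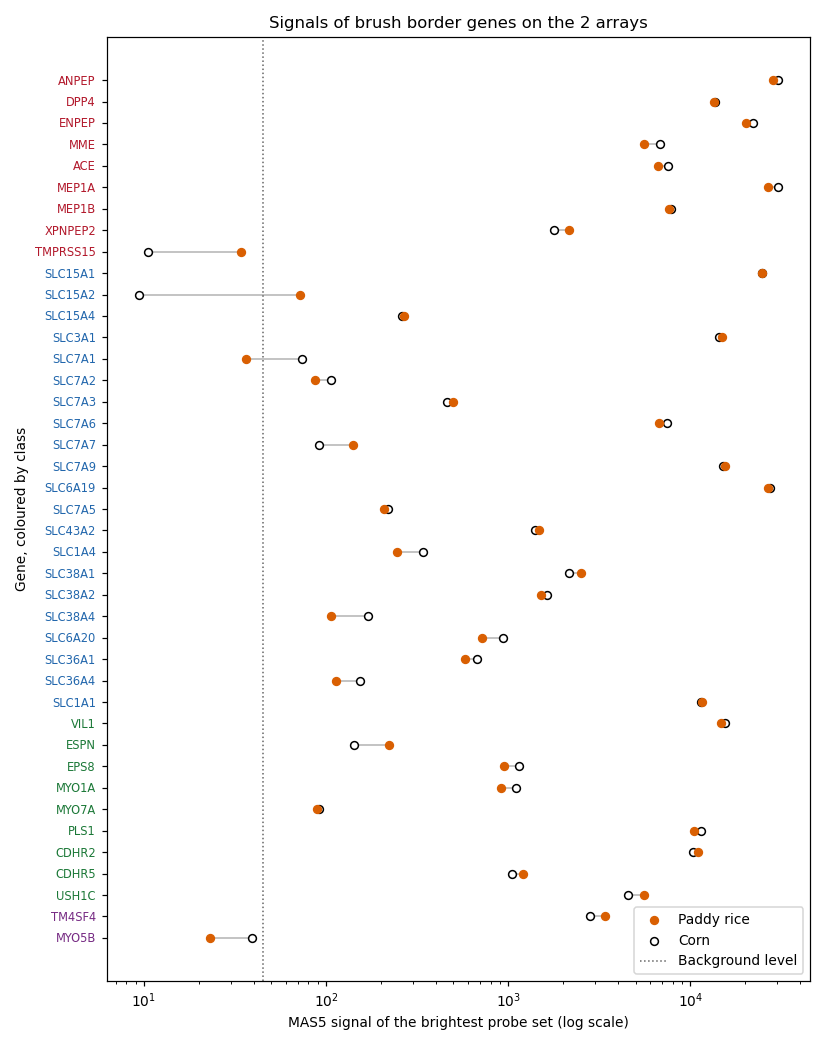
Signal of the brightest probe set of each of the 41 measured genes on the paddy rice array (filled) and the corn array (open), on a log scale, with genes coloured as peptidases (red), transporters (blue), microvillus genes (green) and other apical genes (purple). The filled and open points nearly coincide for the bright genes at the right, and the widest gaps belong to genes near the dotted line, the background level of 45.1 on paddy rice.

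The peptidases had the most one-sided ratios of the 3 main classes. Of 8 above background, all of them bright, 7 had ratios below 1, as had 50.1% of bright named genes, and none was past a threshold. Their median log2 ratio was -0.10 and their ratios ran from 0.825 to 1.21. For 4 of the 8 the log2 ratio was within 1 SD between probe sets of 0.

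MME (neprilysin, a zinc endopeptidase of the apical membrane) had the lowest ratio. Its brightest probe set had a signal of 5575 on paddy rice and 6762 on corn, a ratio of 0.825. The other MME probe sets had 1503 on paddy rice and 2002 on corn, and 777 on paddy rice and 858 on corn, so that all 3 were lower on paddy rice, with ratios between 0.751 and 0.905. MEP1A, the alpha subunit of the secreted and membrane-bound metalloprotease meprin, had 26600.0 on paddy rice and 30292 on corn, a ratio of 0.878. The beta subunit gene MEP1B had 7642 on paddy rice and 7787 on corn, a ratio of 0.981. The subunit genes of meprin thus stood apart by about 0.16 in log2 ratio, the SD between bright probe sets of 1 gene. At the 95th percentile of signal and above, where both genes lay, this SD was 0.11. It describes 1 probe set about the mean of its gene, and a difference between 2 probe sets scatters more. Whether the subunit genes differ was not tested. ACE, which removes dipeptides from the carboxyl end of peptides, had 6673 on paddy rice and 7512 on corn, a ratio of 0.888.

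The aminopeptidases lay on both sides of 1. ENPEP (aminopeptidase A, which removes acidic residues) had ratios of 0.920 and 0.813 on its 2 probe sets, the first with 20216 on paddy rice and 21975 on corn. The probes of both ENPEP probe sets can match more than 1 transcript. ANPEP (aminopeptidase N, which removes neutral residues) had 28474 on paddy rice and 30278 on corn, a ratio of 0.940. DPP4, which releases dipeptides ending in proline or alanine, had 13536 on paddy rice and 13615 on corn, a ratio of 0.994, and its other 2 probe sets were not above background on either array. XPNPEP2 (membrane-bound aminopeptidase P, which cuts before a proline) was the exception in direction, with 2164 on paddy rice and 1790.5 on corn, a ratio of 1.21. ANPEP, ACE, MEP1A, MEP1B and XPNPEP2 each rest on 1 probe set. TMPRSS15 encodes enteropeptidase, the duodenal activator of trypsinogen, and its signals of 33.99 on paddy rice and 10.58 on corn were both under background.

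At the highest signals the arrays scattered less. Of 1373 named genes whose signal reached 3334, the 95th percentile and a level set after the data were seen, 90% had ratios between 0.872 and 1.18 and 49.24% had ratios below 1. All 7 peptidases that reached this level had ratios below 1, and MME was the only one under the range, with 2.04% of these genes lower than it. The 7 are the peptidases already counted below 1, since XPNPEP2, with a ratio of 1.21, did not reach this level. MEP1A had 5.68% and ACE 7.58% of the genes below them. USH1C, a microvillus gene, was above the range, and the other 15 of the 17 brush border genes at this level were inside it.

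The carriers for the main products of protein digestion had almost equal signals on both diets. SLC15A1 (PepT1), the apical carrier of di- and tripeptides, had a signal of 24687 on paddy rice and 24643 on corn, a ratio of 1.00. SLC7A9 and SLC3A1 encode the light and heavy chains of the apical exchanger for cystine and cationic amino acids. SLC7A9 had 15490 on paddy rice and 15138 on corn, a ratio of 1.02, with 1.06 and 1.04 on its other probe sets, and SLC3A1 had 14839 on paddy rice and 14404 on corn, a ratio of 1.03. Both chains of the exchanger therefore lay within 1 SD between probe sets of 1. SLC6A19, the apical sodium-dependent carrier of neutral amino acids, had 26524 on paddy rice and 27376 on corn, a ratio of 0.969, and 0.976 on the second probe set. The dimmest SLC6A19 probe set had 109 on paddy rice and 165 on corn, a ratio of 0.663. SLC1A1 (EAAT3), the carrier of glutamate and aspartate, had 11609 on paddy rice and 11394 on corn, a ratio of 1.02, and 0.957 and 1.02 on its other probe sets.

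**Figure D2:**
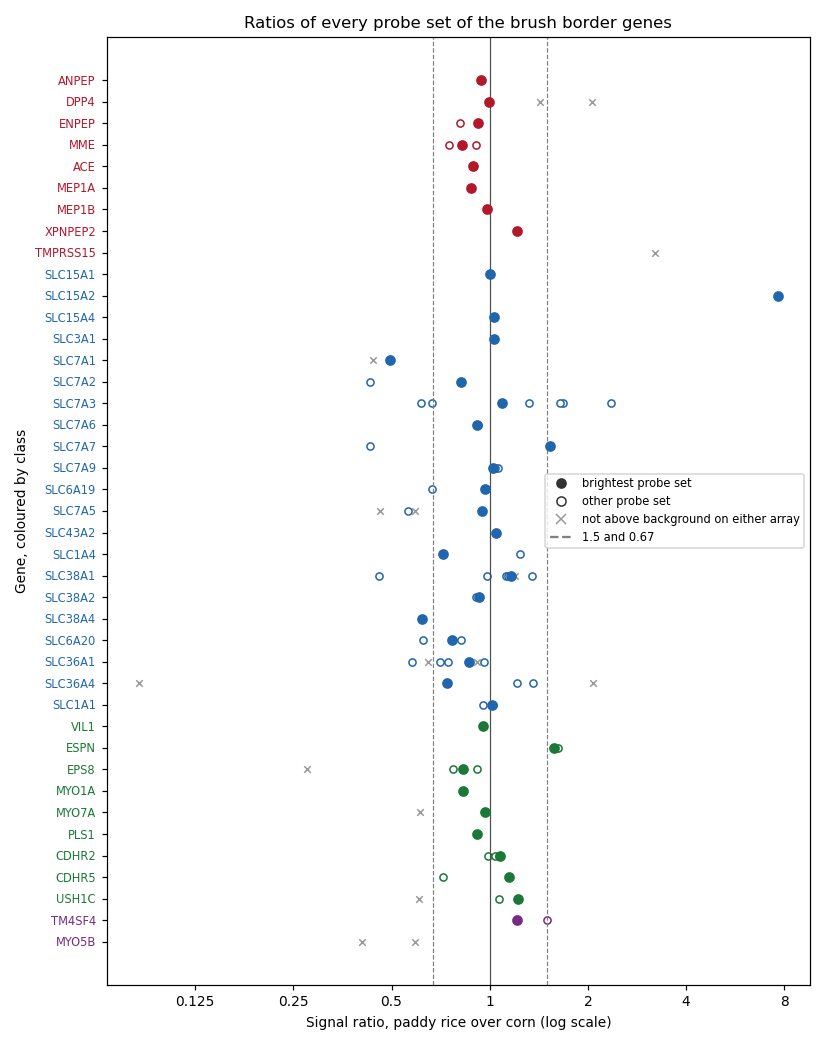
Ratio of signals, paddy rice over corn, on a log scale, for every probe set of the 41 genes; filled points are the brightest probe set, open points the others, grey crosses probe sets not above background on either array (where only 1 array was above background, as for SLC15A2 and SLC7A1, the plotted ratio is of the signals as deposited), and dashed lines the ratios 1.5 and 0.67. The bright transporters SLC15A1, SLC3A1, SLC7A9 and SLC1A1 sit at 1, the 3 probe sets of SLC6A20 all sit below 1, and those of SLC7A3, SLC7A7, SLC1A4 and SLC36A4 lie on both sides of it.

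The imino acid and proton-coupled carriers had the lowest median log2 ratio of the transport classes, -0.39, with 3 of 3 below 1 on their brightest probe sets, though SLC36A4 was at 1.21 with shared probe sets left out or with the median over probe sets. SLC6A20, the sodium-dependent carrier of proline and other imino acids, had 719 on paddy rice and 940 on corn, a ratio of 0.766. Its other probe sets had 448 on paddy rice and 548 on corn, and 306 on paddy rice and 489 on corn, with ratios of 0.817 and 0.626. Of the 5784 bright named genes, 2.16% had a lower ratio than SLC6A20, and it was the only one of the 27 brush border genes outside the range of 0.824 to 1.23 that held 90% of them. Its signal, at the 81.4th percentile, was low among the bright genes, and ratios scattered less at higher signals. SLC36A1 (PAT1), the proton-coupled carrier of small amino acids and proline, had 582 on paddy rice and 673 on corn, a ratio of 0.865. All 4 of its probe sets that reached the median signal were below 1, between 0.576 and 0.963. SLC36A4, a related carrier of proline and tryptophan, had 113 on paddy rice and 153 on corn, a ratio of 0.740. Its next 2 probe sets, below the median signal, had 97.1 on paddy rice and 80.3 on corn, and 97.8 on paddy rice and 71.9 on corn, with ratios of 1.21 and 1.36, and 2 more were under background. The probe sets of SLC36A4 thus gave no common direction.

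The other neutral amino acid carriers were mixed in direction. SLC38A1 (SNAT1), a sodium-coupled carrier of glutamine and other neutral amino acids, had 2494 on paddy rice and 2147 on corn, a ratio of 1.16. Of the 5 SLC38A1 probe sets that reached the median signal, 4 were above 1, and these 5 ran from 0.983 to 1.35. The probes of the brightest can match more than 1 transcript, and with shared probe sets left out SLC38A1 was at 0.983. A sixth SLC38A1 probe set had 34.8 on paddy rice, under background, and 75.8 on corn, at least 1.68-fold lower. It was above background only on corn, which fixed its direction. SLC38A2 and SLC38A4, carriers of the same family, follow SLC38A1 directly in the RefSeq order of protein-coding genes (assembly GRCg7b), with 0 genes between neighbours. SLC38A2 had 1520 on paddy rice and 1638 on corn, a ratio of 0.928, and 0.911 on its second probe set. SLC38A4 had 105.9 on paddy rice and 171 on corn, a ratio of 0.620, on 1 probe set, whose probes can match more than 1 transcript. The neighbours thus had ratios on either side of 1, and only SLC38A4 was past a threshold.

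SLC43A2 (LAT4), a facilitated carrier of large neutral amino acids, had 1470 on paddy rice and 1402 on corn, a ratio of 1.05. SLC7A5 (LAT1), an exchanger of large neutral amino acids, had 207 on paddy rice and 218 on corn, a ratio of 0.949, but 124 on paddy rice and 221 on corn on its second probe set, a ratio of 0.560. For SLC1A4 (ASCT1), an exchanger of alanine, serine and cysteine, the 2 probe sets disagreed. The brightest had 245 on paddy rice and 339 on corn, a ratio of 0.721, and the other had 316 on paddy rice and 254 on corn, a ratio of 1.24. No direction can be given for SLC1A4.

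Of the cationic amino acid carriers, those of the basolateral y+L type were measured at very different brightness. SLC7A6, a light chain of that exchanger, had 6735 on paddy rice and 7386 on corn, a ratio of 0.912, and 0.920 on its second probe set. SLC7A7, the light chain best known from mammalian intestine and kidney, had 140 on paddy rice and 91.8 on corn, a ratio of 1.53, just past the threshold. Its second probe set had 28.0 on paddy rice, under background, and 65.5 on corn, at least 1.45-fold lower on paddy rice. The probe sets of SLC7A7 thus pointed opposite ways, but the second was above background only on corn, which fixed its direction.

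The uniporters of the CAT family were dim or scattered. SLC7A1 (CAT-1) had 36.4 on paddy rice, which is under background, and 73.5 on corn, and was at least 1.63-fold lower on paddy rice when the background level was put in its place; its second probe set, with 2.55 on paddy rice and 5.80 on corn, was under background on both. SLC7A2 (CAT-2) had 86.5 on paddy rice and 105.9 on corn, a ratio of 0.816, and its second probe set had 27.0 on paddy rice, under background, and 62.8 on corn, at least 1.39-fold lower. The brighter SLC7A2 probe set was thus lower on paddy rice, near background. The other was above background only on corn, which fixed its direction. SLC7A3 (CAT-3) had 7 probe sets, with 498 on paddy rice and 458.5 on corn on the brightest, a ratio of 1.09. The next 4 had 243 on paddy rice and 145 on corn, 184 on paddy rice and 112 on corn, 170 on paddy rice and 72.2 on corn, and 118 on paddy rice and 89.4 on corn, with ratios between 1.32 and 2.36. The last 2 were lower on paddy rice, with 46.5 on paddy rice and 75.3 on corn (a ratio of 0.618), and with 35.96 on paddy rice, under background, and 53.95 on corn (at least 1.20-fold lower). The 4 SLC7A3 probe sets that reached the median signal were all above 1.

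Neither of the remaining peptide carriers was bright. SLC15A2 (PepT2), the high-affinity peptide carrier known mainly from kidney, had 71.6 on paddy rice and 9.35 on corn, where it was under background, so that it was at least 1.62-fold higher on paddy rice. It rests on 1 probe set, whose probes can match more than 1 transcript. SLC15A4, a lysosomal carrier of histidine and peptides, had 269 on paddy rice and 261 on corn, a ratio of 1.03, also on 1 probe set of this kind. Over all 21 transporters the median log2 ratio was -0.05, with 11 below 1 and 10 above, and over the 11 bright ones it was 0.0026 (5 below 1 and 6 above). None of the 4 transporters past a threshold was among the bright ones.

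**Figure D3:**
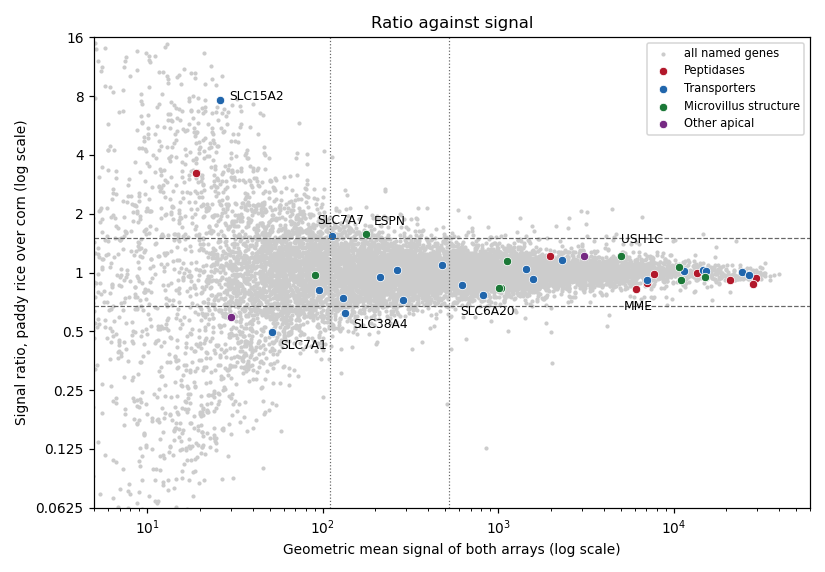
Ratio of paddy rice over corn against the geometric mean signal of both arrays, both on log scales, for all named genes (grey) and the brush border genes (coloured by class); dashed lines mark 1.5 and 0.67, dotted lines the median (110.5) and the 75th percentile (522) of signal, and 212 of the 13050 genes lie beyond the axes. The grey cloud narrows from left to right, and the 5 brush border genes past a threshold lie in its wide part. TMPRSS15 and MYO5B, under background on both arrays and not counted, are plotted beyond the dashed lines at the ratios of their signals as deposited.

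The microvillus genes differed in direction. VIL1, PLS1, MYO1A and EPS8, which bundle, tie or cap the actin core, had ratios below 1, while USH1C, CDHR2 and CDHR5 of the adhesion complex at the tips had ratios above 1, as had the actin bundler ESPN. This grouping was made after the values were seen. Of the 7 bright microvillus genes, 3 (VIL1, PLS1 and CDHR2) had log2 ratios within 1 SD between probe sets of 0. VIL1 (villin, which bundles and severs actin) had 14726 on paddy rice and 15472 on corn, a ratio of 0.952, and PLS1 (plastin 1, another bundler) had 10465 on paddy rice and 11463 on corn, a ratio of 0.913. MYO1A (myosin 1a, which ties the core to the membrane) had 917 on paddy rice and 1104 on corn, a ratio of 0.831. EPS8, which caps actin filaments at the microvillus tip, had 949 on paddy rice and 1146 on corn, a ratio of 0.829, and 0.773 and 0.914 on the next 2 probe sets. EPS8 was thus lower on paddy rice on each of its 3 probe sets above background, while VIL1, PLS1 and MYO1A rest on 1 probe set each. The probes of the EPS8 probe sets at 0.829 and 0.773 can match more than 1 transcript.

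USH1C (harmonin, the scaffold of the adhesion complex) had 5531 on paddy rice and 4537 on corn, a ratio of 1.22, and 3536 on paddy rice and 3321 on corn on its second probe set, a ratio of 1.06. The tip protocadherin gene CDHR5 had 1197 on paddy rice and 1046 on corn, a ratio of 1.145, on a probe set whose probes can match more than 1 transcript. On its second probe set CDHR5 had 37.9 on paddy rice, under background, and 52.7 on corn (at least 1.17-fold lower). Its partner CDHR2 had 11063 on paddy rice and 10312 on corn, a ratio of 1.07, with 0.991 for the lowest of 4 CDHR2 probe sets. The rest of the complex, named after its values were seen, did not share this direction. MYO7B, its motor, had 830 on paddy rice and 1087 on corn, a ratio of 0.764 (0.894 as the median over its 2 probe sets), the scaffold gene ANKS4B had a ratio of 0.891, and the light chain gene CALML4 had 0.996. Genes of 1 complex therefore had ratios on both sides of 1, though CDHR2 and CALML4 lay within 1 SD between probe sets of 1.

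ESPN (espin, an actin bundler that lengthens microvilli and stereocilia) was the only microvillus gene past a threshold. Its probe sets had 222.5 on paddy rice and 142 on corn, a ratio of 1.57, and 188 on paddy rice and 116 on corn, a ratio of 1.62. Both ESPN probe sets were thus above 1.5, at signals between the median and the 75th percentile. Of named genes that reached the median signal, 98.7% had a lower ratio, but this set includes the bright genes, whose ratios scattered less. Between the median and the 75th percentile, 8.01% of named genes were past a threshold. MYO7A, a myosin known mainly from the stereocilia of the inner ear, had 88.9 on paddy rice and 91.9 on corn, a ratio of 0.967. The probes of its probe sets can match more than 1 transcript. Of the 9 microvillus genes, 5 had ratios below 1 and 4 above, with a median log2 ratio of -0.05.

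TM4SF4, a tetraspan protein of the intestinal epithelium, had 3384 on paddy rice and 2796 on corn, a ratio of 1.21, and 98.3 on paddy rice and 65.7 on corn on its second probe set, a ratio of 1.496. MYO5B, the motor that carries recycling endosomes to the apical membrane, had 23.0 on paddy rice and 39.1 on corn, both under background. Of the 17 genes with several probe sets that reached the median signal, 13 had all of them on the same side of 1. The same share over all named genes was not analysed here.

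Further genes of the same functions were read from lists of related genes. Of 25 other peptidases above background, mostly cytosolic or lysosomal, none was above 1.5 (5.61% of all named genes were) and 2 were below 0.67 (6.18% were), with a median log2 ratio of -0.04. DPP7, a lysosomal dipeptidyl peptidase, was the one of these that was not dim, with 143 on paddy rice and 215 on corn, a ratio of 0.663. Of 17 other amino acid transporters, 1 was above 1.5 and 5 were below 0.67, with a median of -0.17, but 9 of the 17 were dim and held all 5 low ones, beside 43.8% of dim named genes past a threshold. SLC38A3 (SNAT3), a glutamine carrier, was the one above, with 156 on paddy rice and 91.5 on corn, a ratio of 1.71. None of 23 other microvillus genes and none of 15 genes of apical trafficking was past a threshold, with medians of -0.07 and 0.02. Of these, 18 and 11 were bright, where only 0.951% of named genes were past a threshold. The rest lay between the median and the 75th percentile, where 8.01% were.

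Genes that respond to a shortage of amino acids were included because crude protein was not matched between diets. According to the paper, calculated crude protein was lower in the paddy rice diet, and both diets were formulated to cover the birds' nutrient requirements. Of 15 above background, 9 had ratios above 1 and the median log2 ratio was 0.09. ATF3, a stress-induced transcription factor, had 467 on paddy rice and 287 on corn, a ratio of 1.62. CHAC1, which degrades glutathione, had 294 on paddy rice and 563 on corn, a ratio of 0.522. ATF4, the transcription factor at the head of this response, had 10713 on paddy rice and 12693 on corn, a ratio of 0.844, and its target ASNS (asparagine synthetase) had 961 on paddy rice and 900 on corn, a ratio of 1.07. The genes of this list did not share a direction, and whether the groups differed in amino acid supply was not tested.

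**Figure D4:**
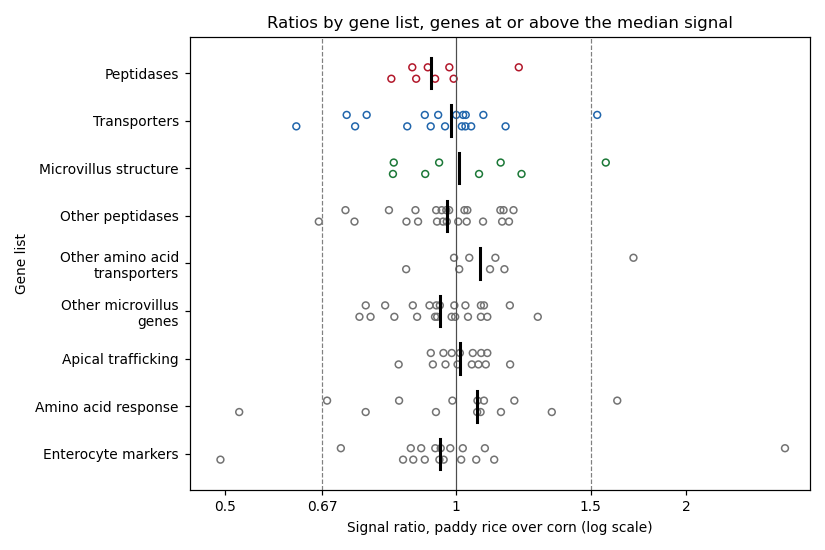
Ratio of paddy rice over corn on a log scale for the genes that reached the median signal in the 3 brush border classes (coloured) and in 6 related lists (grey); each circle is a gene, offset vertically for legibility, the black bar is the list's median ratio, and dashed lines mark 1.5 and 0.67. The medians run from 0.930 for the peptidases to 1.08 for the other amino acid transporters, and most circles lie between the dashed lines.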

How the data were processed

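The deposited values are MAS5 signal intensities per probe set on a linear scale, made by the authors in Affymetrix GeneChip Operating Software and scaled to the same trimmed mean (500.1 on both arrays after trimming 2% at each end). No detection calls were used. The number of arrays, 1 per diet, limits the precision, and no test was made. Of 37693 chicken probe sets, the platform annotation gave 27166 exactly 1 gene; 177 had several and 10350 none. Symbols were updated by Entrez identifier through RefSeq (GRCg7b), and a promoter motif search was not analysed here. Each gene took the probe set of highest mean log2 signal. A gene past 1.5 or 0.67, the thresholds of the methods, was counted where at least 1 signal exceeded background. Where only 1 array exceeded it, the other signal was replaced by the background level to give a bound on the fold. The direction of such a bound follows from which array was above background, and the bound makes no allowance for scatter. The members and lists were chosen with earlier results of these data known, and members are all named. From the lists of related genes, up to 4 genes past a threshold at or above the median signal were named. ATF4, ASNS, MYO7B, ANKS4B and CALML4 were named outside this rule. In lists other than the members, 7 matches by synonym only were not used, since synonyms can be shared between genes. Calls were checked on simulated data made only from signals at or above the 75th percentile over named genes. The check does not cover the brush border genes past a threshold, which were all dimmer. Alternatives were no floor, filters at the median and 75th percentile, median centring, quantile normalization, loess (fraction 0.3), an offset of 34.5, shared probe sets left out, the median over probe sets, and thresholds of 2 and 0.5. Python 3.11.15, numpy 2.4.6, pandas 2.3.3, statsmodels 0.14.6 and matplotlib 3.10.9 were used.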

Additional observations from a re-analysis of the deposited data

How the results depend on the processing

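Scaling mattered little: after median centring, quantile normalization or loess centring the same 3 genes were above 1.5 and the same 2 below 0.67. The calls depended on brightness and on the choice of probe set. With only signals at or above the 75th percentile, 0 genes were above 1.5 and 0 below 0.67, beside 0.622% and 0.329% of named genes at that level. At or above the median signal 2 of 35 were above (ESPN and SLC7A7), beside 1.88% of named genes at that level. In that setting 1 was below (SLC38A4), beside 1.72%. With the offset of 34.5 1 was above (SLC15A2), beside 3.26% of named genes, and 1 below (SLC7A1), beside 3.69%. With thresholds of 2 and 0.5 it was again 1 and 1, the same genes, on signals as deposited, beside 2.37% and 2.87%. With background in place of the signal under it SLC15A2 and SLC7A1 are at least 1.62- and 1.63-fold, and neither is shown to pass these thresholds. Without shared probe sets 4 of 34 were below (SLC6A19, SLC6A20, SLC7A1 and SLC7A5), beside 7.88% of all named genes, since dimmer probe sets then stood for SLC6A19, SLC6A20 and SLC7A5. In that setting CDHR5 was at 0.719, with a paddy rice signal under background, and SLC38A1 at 0.983. With the median over probe sets 4 of 39 were below (SLC38A4, SLC7A1, SLC7A2 and SLC7A5), beside 7.28%, and SLC7A7 turned to 0.809, a value that rests on a paddy rice signal under background. SLC36A4 was at 1.21 under both settings. With that median DPP4 was at 1.43, since 2 of its 3 probe sets were under background. Median log2 ratios ran from -0.13 to -0.07 for the peptidases, from -0.05 to 0.0026 for the transporters and from -0.13 to 0.02 for the microvillus genes over the 9 alternatives to which they apply. No paired analysis was possible because there is 1 array per diet.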
